A study of Arabidopsis thaliana with 6 samples.

Results

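OCT1 (AT1G73220, probe set 260097_at) encodes organic cation/carnitine transporter 1, a carrier of the major facilitator type. It is 1 of 22746 probe sets measured in root RNA on Affymetrix ATH1 arrays, which carry several short probes (a probe set) per transcript. The probe set was taken from the platform annotation, and the gene was chosen by its measured signal on these 6 arrays, which was lower in the RXR1 overexpressor than in wild type and in the rxr1 mutant. Those 2 differences are therefore given as a description, with no test.

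Each of the 6 arrays held root RNA of Arabidopsis thaliana seedlings aged 7 days, grown on vertical plates of solid MS-based medium. There were 2 arrays of wild type, 2 of plants with AtRXR1 overexpression and 2 of an AtRXR1 mutant. The labels name neither the promoter behind the overexpression nor the mutant allele, the number of independent lines or the ecotype. The transcript of RXR1 itself was not analysed here, because no probe set was named for it, and the genotype labels therefore have no check. The labels do not say whether the replicate arrays of a genotype are separate plants; each p-value refers to the spread of these arrays alone, and that spread may be technical.

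As background, Arabidopsis OCT1 is a plasma membrane protein related to the animal carriers of carnitine and organic cations. Its promoter is known to be active in vascular tissue and where lateral roots form, mutants that lack it branch their roots more, and it has been tied to the response of roots to the polyamine cadaverine. Its transcript is also known to rise in phosphate-starved plants. RXR1 encodes a protein with a DUF506 domain, described as induced by phosphate limitation and as a repressor of root hair elongation.

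OCT1 was lowest in the overexpressor, intermediate in wild type and highest in the mutant. The deposited RMA signal, a background-corrected and normalized brightness on a linear scale, was 91.4 and 88.3 intensity units in the overexpressor arrays. It was 176.4 and 174.3 units in the wild-type arrays. In the mutant arrays it was 231.5 and 200.1 units. The 3 groups did not overlap, and the nearest arrays of different groups were wild-type replicate 1 and mutant replicate 2. Group means were 89.8 ± 2.18 units in the overexpressor, 175.3 ± 1.49 in wild type and 215.8 ± 22.2 in the mutant (SD, n = 2 each).

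**Figure D1:**
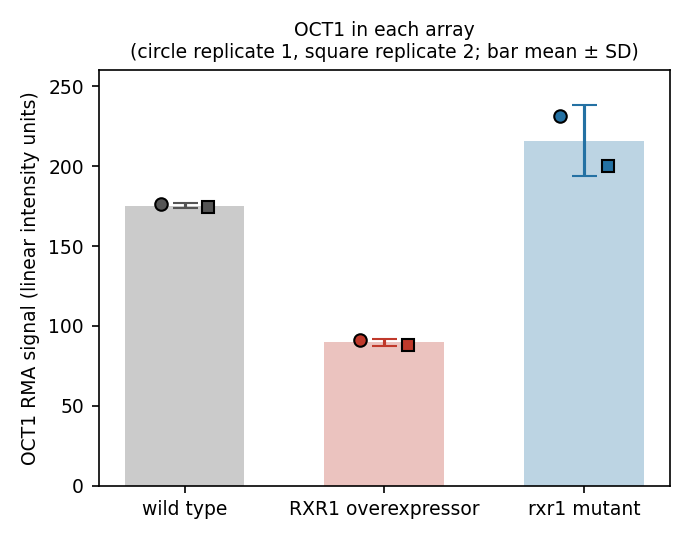
OCT1 RMA signal (linear intensity units, axis from 0) in each array, with circles for replicate 1, squares for replicate 2, and bars for the mean ± SD of 2 arrays. The overexpressor arrays sit at 91.4 and 88.3 units, below the wild-type arrays at 176.4 and 174.3 and the mutant arrays at 231.5 and 200.1.

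On the log2 scale the overexpressor lay 0.97 below wild type (difference of means -0.97 ± 0.0988, SE of the fit, 95% interval -1.20 to -0.73), a signal 1.95-fold lower. The gap between any overexpressor array and any wild-type array ran from 0.932 to 0.999. Against the mutant the overexpressor was at -1.26 ± 0.0988 (95% interval -1.49 to -1.03), or 2.40-fold lower, with gaps between single arrays of 1.13 to 1.39. Both intervals are descriptive, since the gene was chosen for these differences. In bulk root RNA, fewer cells with the transcript and less of it per cell cannot be told apart.

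The order of mutant and wild type was not part of the choice, although both means entered it. OCT1 was 0.30 ± 0.0988 higher in the mutant on the log2 scale (1.23-fold, 95% interval 0.06 to 0.53). The mutant arrays lay 0.40 and 0.19 above the wild-type mean, so mutant replicate 1 gave the larger part. This difference did not pass the limma test over all probe sets (unadjusted p = 0.0193, adjusted p = 0.524). Wild type and mutant are therefore neighbours in the order whose difference was not established beyond the spread of the arrays, although both mutant arrays were above both wild-type arrays.

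The replicates of OCT1 lay close together in 2 of the 3 groups. The wild-type arrays differed by 0.0173 on the log2 scale, against a median gap of 0.159 over all probe sets. Wild-type replicate 2 stood apart from the other 5 arrays as a whole: in the authors' deposited table its correlation with each of them was between 0.97 and 0.983, while pairs of the other 5 reached 0.994 to 0.998. Without it the overexpressor minus wild type difference of OCT1 was -0.97, and without wild-type replicate 1 it was -0.96. The overexpressor arrays differed by 0.0496 (median over all probe sets 0.0787), and the mutant arrays by 0.211 (median 0.0897). The mutant was thus the group in which OCT1 varied most.

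RNA quality was read from the actin control probes, as the log2 signal at the 3' end less that at the 5' end. Wild type had 1.39 and 1.40, the overexpressor 1.21 and 1.11, and the mutant 1.29 and 1.19. The mutant and overexpressor arrays overlapped in this measure. In the same difference for the ubiquitin control both overexpressor arrays (0.0083 and 0.011) lay above the other 4 (-0.10 to -0.0061). For the GAPDH control all 3 groups overlapped, between 0.15 and 0.37. The part of RNA quality in the OCT1 difference was not tested.

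Among all probe sets the overexpressor minus mutant difference of OCT1 was near the bottom: 3 had a lower value and 22742 a higher one. For overexpressor minus wild type 46 were lower. For mutant minus wild type 1056 were higher. These ranks come from the values that chose the gene and are given as a description. The medians over all probe sets were 0.0057, -0.0051 and 0.0035 for the overexpressor against wild type, the mutant against wild type and the overexpressor against the mutant.

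**Figure D2:**
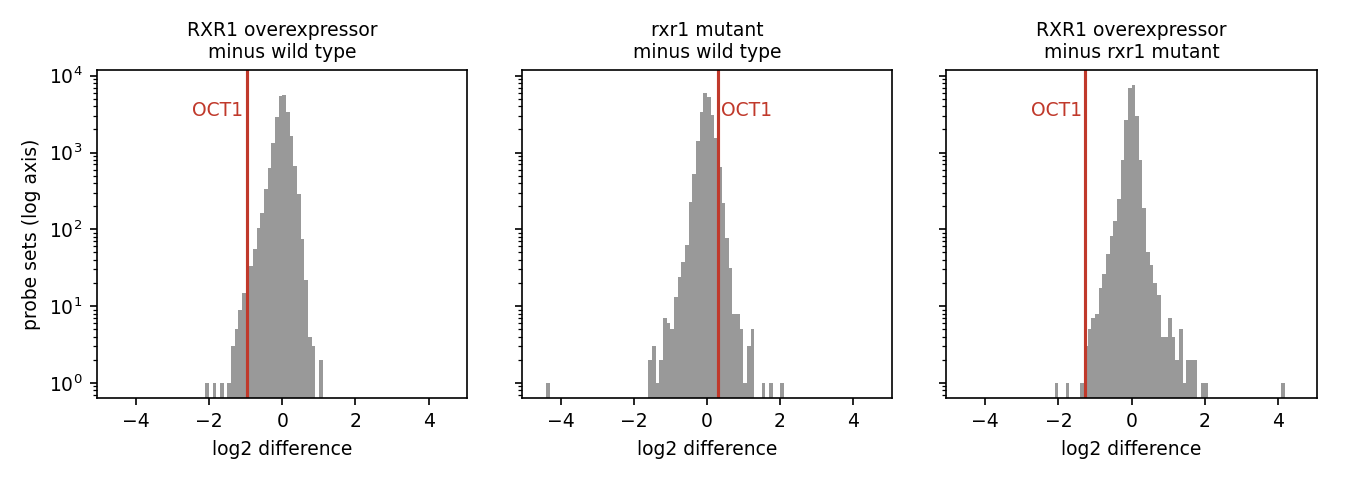
Log2 differences of group means for all 22746 probe sets (horizontal axis; number of probe sets on a log axis), with the position of OCT1 as a line in each panel. OCT1 lies at -0.97, 0.30 and -1.26, in the lower tail of both differences that involve the overexpressor.

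Both overexpressor arrays were below the other 4 arrays in 2172 probe sets (9.55%). Among them were 137 (0.602% of all probe sets) with both mutant arrays above both wild-type arrays, as in OCT1, and 655 (2.88% of all) with the wild-type arrays on top. The mirror image, overexpressor highest and mutant lowest, was seen in 223 (0.98%). Within the 137, whose median overexpressor minus mutant difference was -0.21, OCT1 had the lowest value, -1.26. The order and the ranking use the values that chose OCT1, so its place is only a description. The next named genes, looked up after these values were seen, were AT4G37220 at -1.25 and the plant defensin gene PDF2.1 at -0.86.

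In the overexpressor against wild type 23 probe sets were called at an adjusted p under 0.05 (0.101%), 0 higher and 23 lower. In the mutant against wild type 1 was called (0.0044%), and between the lines 3 (0.0132%). At an unadjusted p under 0.05 the shares of all probe sets were 11.8% in this comparison, 9.33% in the mutant against wild type and 5.05% between the lines. With shares this low, a count of 0 called in a short list says nothing particular about its genes.

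The organic cation transporter family has 6 members in Arabidopsis, and 3 were measured under a name. OCT4 and OCT5, the other two, are carriers of the same type that are known mainly from their place in intracellular membranes. In log2 units OCT4 was at 6.12 and 6.32 in wild type, 6.02 and 6.33 in the overexpressor, and 5.87 and 6.26 in the mutant. All 3 groups overlapped, with replicate 2 the higher array in each. OCT5 was at 7.62 and 7.88 in wild type, 7.65 and 7.50 in the overexpressor, and 7.72 and 7.80 in the mutant. Its overexpressor arrays overlapped with wild type but lay below both mutant arrays. The share of all probe sets with that order was not counted, so it is only a description.

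Neither relative passed the limma test in any of the 3 comparisons (0 of 2 called, 0 at an unadjusted p under 0.05), with 0.101%, 0.0044% and 0.0132% of all probe sets called. For the overexpressor against wild type, OCT4 was at -0.04 ± 0.162 (95% interval -0.42 to 0.34, adjusted p = 0.945) and OCT5 at -0.18 ± 0.115 (-0.45 to 0.09, adjusted p = 0.575). Against the mutant, OCT4 was at 0.11 ± 0.162 (-0.27 to 0.49, adjusted p = 0.999) and OCT5 at -0.18 ± 0.115 (-0.45 to 0.09, adjusted p = 0.999). These intervals do not reach the -0.97 and -1.26 of OCT1, but OCT1 was chosen for those low values. The difference between OCT1 and its relatives was not tested. For the mutant against wild type OCT4 was at -0.15 (-0.53 to 0.23) and OCT5 at 0.01 (-0.26 to 0.28). The OCT5 values rested on single control arrays: without wild-type replicate 1 the overexpressor was at -0.31 and the mutant at -0.12, and without replicate 2 they were at -0.05 and 0.14.

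**Figure D3:**
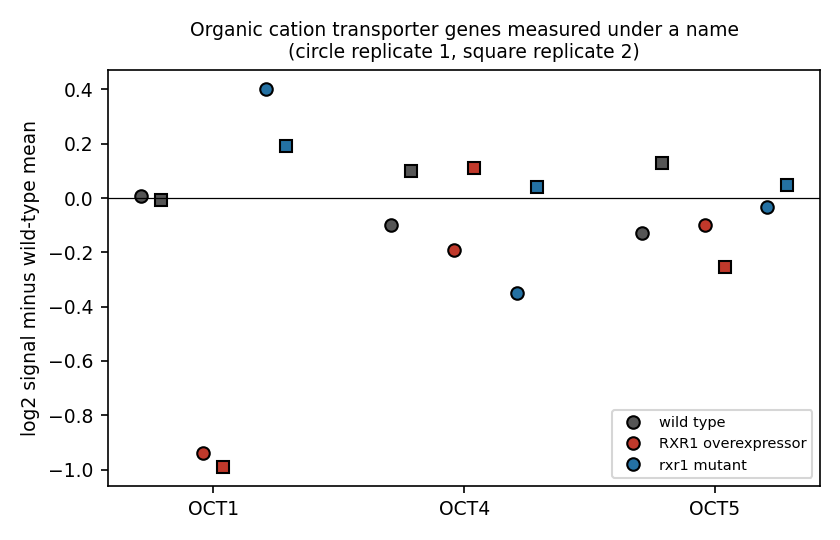
Log2 signal minus the wild-type mean of the same gene, per array, for the 3 organic cation transporter genes measured under a name (colours: genotype; circle replicate 1, square replicate 2). The overexpressor arrays of OCT1 lie at -0.94 and -0.99, while every array of OCT4 and OCT5 lies within 0.4 of the wild-type mean.

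The measured genes nearest to OCT1 on chromosome 1 were also read, 3 on each side by the order of the gene table. Most were not adjacent to it. AT1G73200, AT1G73180 and AT1G73170 lay 2, 4 and 6 genes away on one side. AT1G73230, AT1G73240 and AT1G73320 lay 1, 2 and 10 genes away on the other. None was called in any comparison (0 of 6, with 0.101% or less of all probe sets called; limma, 0 at an unadjusted p under 0.05, against 11.8%, 9.33% and 5.05% of all). For the overexpressor against the mutant they ran from -0.14 (AT1G73170 and AT1G73320) to 0.02 (AT1G73230). AT1G73230, the next gene, was at 0.32 ± 0.141 for the overexpressor and 0.30 ± 0.141 for the mutant against wild type (adjusted p = 0.437 and 0.552). Its lowest array was wild-type replicate 2, at 11.12 log2 units against 11.56 to 11.67 in the other 5. Both differences hung on the control arrays: they were 0.54 and 0.51 without wild-type replicate 1, and 0.10 and 0.08 without replicate 2. On the other side, AT1G73200 was at -0.17 ± 0.1, AT1G73180 at 0.14 ± 0.121 and AT1G73170 at -0.20 ± 0.0887 for the overexpressor against wild type. AT1G73240 was at 0.09 ± 0.0982 in the same comparison.

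The substrates named for OCT1 lead to the genes of polyamine and carnitine biology. Of 25 listed genes of polyamine transport and metabolism 5 were measured under a name, and 0 were called in any of the 3 comparisons (limma; 1, 1 and 0 at an unadjusted p under 0.05), where 0.101%, 0.0044% and 0.0132% of all probe sets were called and 11.8%, 9.33% and 5.05% had such a p. Their medians were 0.11 for the overexpressor and 0.14 for the mutant against wild type, and -0.05 between the lines. AT5G15950 was at 0.40 ± 0.187 for the overexpressor and at 0.66 ± 0.187 for the mutant (adjusted p = 0.457 and 0.524). Without wild-type replicate 1 these were 0.62 and 0.89, and without replicate 2 they were 0.18 and 0.44. AT2G39020 was at 0.31 ± 0.128 and 0.14 ± 0.128, and for the overexpressor at 0.45 without wild-type replicate 1 and 0.16 without replicate 2. AT3G25570 differed by -0.12 ± 0.109 between the lines. Of 16 carnitine carriers, betaine and basic amino acid transporters only MBAC1, a mitochondrial carrier of basic amino acids, was measured, at 0.07 against wild type in both lines (adjusted p = 0.867 and 0.884). Its sign turned with the control array, from 0.27 without wild-type replicate 1 to -0.13 without replicate 2 in the overexpressor.

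Carriers of the same superfamily in the sugar transporter group were represented by 3 of 20 listed genes. SFP1, a sugar-porter family gene, was at -0.19 ± 0.154 in the overexpressor against wild type, its tandem partner SFP2 at 0.0026 ± 0.104, and AT5G61520 at 0.07 ± 0.0972. The sign of the SFP1 value turned with the control array, from -0.43 without wild-type replicate 1 to 0.05 without replicate 2. None was called in any comparison (limma, 0 of 3, and 0 at an unadjusted p under 0.05). Of all probe sets 0.101%, 0.0044% and 0.0132% were called in these comparisons, and 11.8%, 9.33% and 5.05% had such an unadjusted p.

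Phosphate starvation genes were listed because OCT1 is one of them and RXR1 is known as phosphate-responsive. Of 57 listed genes, 5 (8.77%) were measured under a name, OCT1 among them, so this group was seen only in small part. The other 4 had negative differences in all 3 comparisons, with medians of -0.15 in the overexpressor and -0.05 in the mutant against wild type and -0.08 between the lines. The 3 comparisons share arrays, so their signs are not independent. None was called (limma, 0 of 4, and 0 at an unadjusted p under 0.05), where 0.101%, 0.0044% and 0.0132% of all probe sets were called. Such an unadjusted p was seen in 11.8%, 9.33% and 5.05% of all probe sets. LPR1 and LPR2, multicopper oxidases that arrest root growth at low phosphate, were at -0.11 ± 0.0988 and -0.20 ± 0.107 in the overexpressor against wild type. SIZ1, a SUMO ligase of the phosphate response, was at -0.02 ± 0.0876, and AT1G63010 at -0.21 ± 0.0916 (adjusted p = 0.434). For SIZ1 all 3 groups overlapped, with -0.01 in the mutant against wild type and -0.0067 between the lines. None of these differences was as large as that of OCT1, which was chosen for its size.

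Several genes of root hairs were low in the same arrays as OCT1. Of 33 listed markers of root hairs and epidermis 8 were measured under a name. All 8 had a lower mean in the overexpressor than in wild type (median -0.80), with 3 called against 0.101% of all probe sets. SCN1 differed least, at -0.06 ± 0.0965 (limma adjusted p = 0.850), and its overexpressor arrays overlapped with wild type. This list was drawn up with earlier results of these arrays known, so its direction is not independent evidence. XTH26, a xyloglucan-modifying enzyme, fell by 1.34 on the log2 scale (SE 0.1, adjusted p = 0.017), AT3G49960 fell by 1.31 (SE 0.0895, adjusted p = 0.017), and GH9C1, of the endoglucanase family, fell by 0.84 (SE 0.0877, adjusted p = 0.0357). The count of 3 became 0 when either mutant array was left out, with the 4 arrays compared alone or with 16 added to the signal. It also did not hold when 1 overexpressor array was left out. Between the lines the median was -0.64 and 1 member was called lower, AT3G49960, against 0.00879% of all probe sets. That call (adjusted p = 0.042) was lost with centred arrays (0.0573), without dim probe sets (0.0515), with 16 added (0.104) and without any 1 overexpressor or mutant array. AT1G34510 had the largest such value, at -1.40 ± 0.257 (adjusted p = 0.275).

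The summed signal of the 8 root hair genes was 2623 to 2935 units in the overexpressor, 4196 to 4543 in wild type and 3839 to 4217 in the mutant, with none at 0. The part of root hair cells in the OCT1 difference was not tested. In the mutant the 2 patterns were on different sides of wild type: the root hair list had a median of -0.16, 7 of 8 lower and 0 called (limma; 3 at an unadjusted p under 0.05; of all probe sets 0.0044% and 9.33%), while OCT1 was at 0.30. Both sets of values use the same wild-type arrays, and the difference between them was not tested.

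Markers of the cells in which the OCT1 promoter is known to act were scarcely measured. Of 26 genes of vasculature and pericycle only PHV, a homeodomain-leucine zipper regulator of vascular patterning, had a named probe set. It was at 259.5 and 259.1 units in wild type, between 250.0 and 272.8 in the overexpressor, and between 220.7 and 268.0 in the mutant, so the groups overlapped. Of 21 genes of lateral root formation 4 were measured, with medians of 0.0058, 0.07 and -0.05 in the 3 comparisons and 0 called (limma, 0 at an unadjusted p under 0.05). Of all probe sets 0.101%, 0.0044% and 0.0132% were called, and 11.8%, 9.33% and 5.05% had such an unadjusted p. LBD16 and LBD29, auxin-induced regulators of lateral root initiation, were at -0.05 ± 0.105 and -0.17 ± 0.129 in the overexpressor against wild type, and PUCHI, which shapes the primordium, at 0.15 ± 0.0812. The summed signal of the 4 was 194.8 to 213.2 units in wild type, 199.0 to 206.0 in the overexpressor and 208.0 to 209.2 in the mutant, with none at 0. Of 14 endodermal genes GSO1, a receptor kinase of the Casparian strip, was at -0.18 ± 0.146 in the overexpressor. That value went from -0.41 without wild-type replicate 1 to 0.05 without replicate 2. None of the 8 shoot markers had a named probe set.

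Genes with a profile like that of OCT1 were sought by Pearson's r over the 6 arrays on the log2 scale, among the 915 probe sets whose SD was at least 0.5 times that of OCT1 (0.59). In that pool 25 (2.74%) had r of 0.9 or more, and the median r was 0.195. With 6 arrays in 3 genotypes such an r mostly reflects the group means, and all arrays are shared between the genes compared, so it is a description. The 10 named genes most like OCT1 had r from 0.912 to 0.965. They were AT3G01730, AT4G30320, JAL22, AT5G38020, PPDK, AT4G01390, AT4G04460, AT1G30870, AT1G34330 and AT3G49960, in that order.

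All 10 had both overexpressor arrays below the other 4, which the choice by r favours. AT3G01730, the closest (r = 0.965), was at 5.85 and 5.78 in wild type, 5.14 and 5.09 in the overexpressor, and 5.95 and 5.67 in the mutant. Its mutant arrays lay on either side of wild type. JAL22, a jacalin-related lectin, was at 10.55 and 11.003 in wild type, 9.94 and 9.71 in the overexpressor, and 10.85 and 10.90 in the mutant, with a wide gap between the wild-type arrays. PPDK, pyruvate orthophosphate dikinase, which links pyruvate and phosphoenolpyruvate, was at 6.27 and 6.54 in wild type, 5.30 and 5.57 in the overexpressor, and 6.38 and 6.35 in the mutant.

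The mutant set the genes of this group apart from each other. For mutant minus wild type their values ran from -0.26 (AT3G49960) to 0.25 (AT4G04460), and 7 of 10 were negative. AT4G04460 was the 1 gene of the 10 in which both mutant arrays lay above both wild-type arrays, as in OCT1. Its arrays were at 7.75 and 7.59 in wild type, 7.08 and 7.36 in the overexpressor, and 7.89 and 7.95 in the mutant. Membership of this group was unstable. Of the 10 genes, 4 stayed without wild-type replicate 2 or without mutant replicate 1, 5 without overexpressor replicate 1, and 6 without mutant replicate 2. With Spearman's rho in place of r, 2 stayed.

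**Figure D4:**
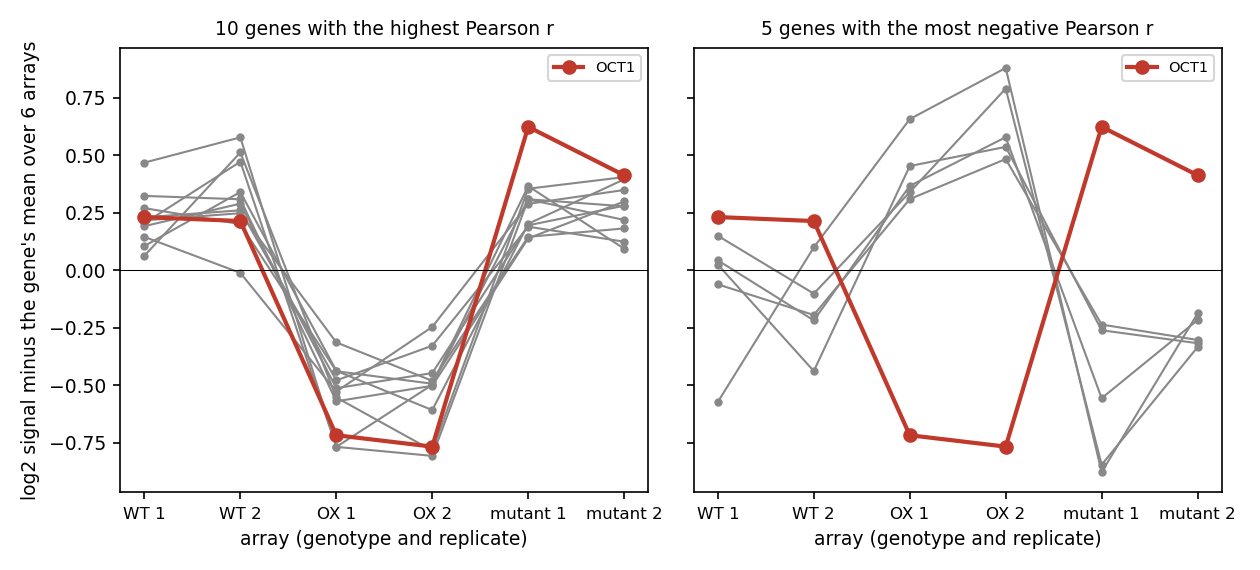
Log2 signal minus each gene's mean over the 6 arrays (WT wild type, OX overexpressor, numbers are replicates), for OCT1 in red and, in grey, the 10 named genes with the highest r (left) and the 5 with the most negative r (right). All grey genes on the left dip in both OX arrays, and OCT1 stands above them in mutant replicate 1.

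The 5 named genes most opposite to OCT1 had r from -0.963 to -0.895. AT1G06830 was at 5.42 and 5.28 in wild type, 5.79 and 5.96 in the overexpressor, and 5.24 and 5.18 in the mutant, so that its 3 groups did not overlap. AT4G39675 had the largest overexpressor minus mutant difference of the 5, at 1.302, with the wild-type arrays at 8.74 and 9.41. AT4G27280 was at 0.54 for the overexpressor and at -0.61 for the mutant, both against wild type. AT1G14480 was at 0.56 and -0.30, and AT4G00780 at 0.70 and -0.08. All 5 were higher in both overexpressor arrays than in the other 4 and had a negative mean difference in the mutant.

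The direction of each OCT1 difference was the same under all 13 alternative settings. Much of this was fixed in advance, because several settings leave the difference of means as it was. As the groups did not overlap, leaving out an array cannot turn a sign either. Overexpressor minus wild type ran from -0.99 to -0.85 and overexpressor minus mutant from -1.37 to -1.13. Mutant minus wild type ran from 0.19 to 0.40, with a limma adjusted p between 0.122 and 0.936, and passed under none of them.

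**Figure D5:**
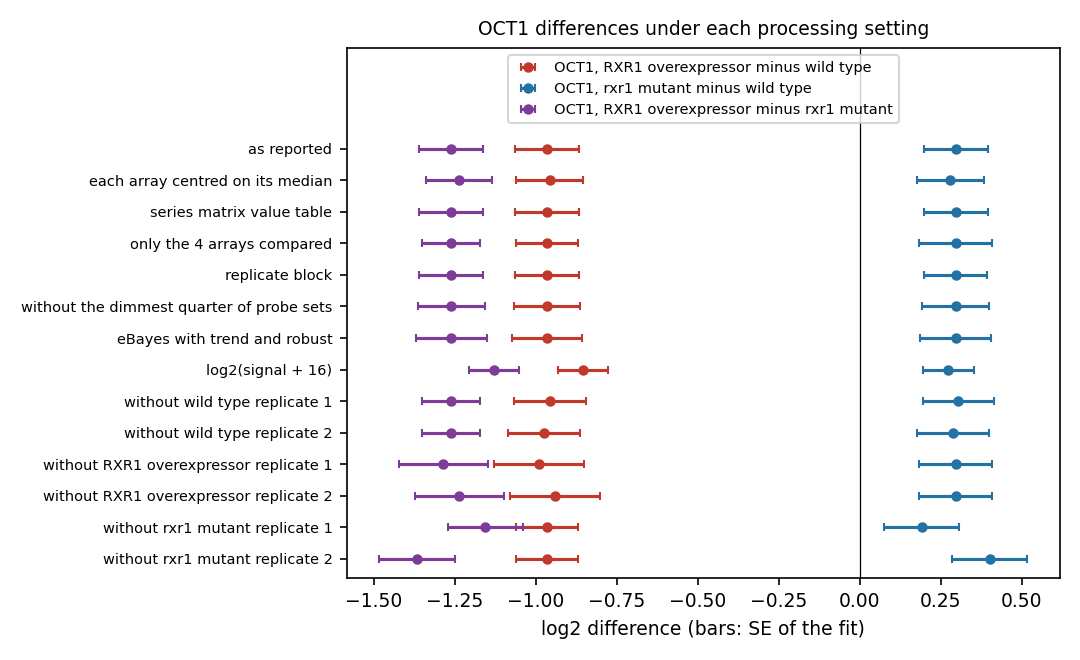
The 3 OCT1 differences (log2, horizontal axis; bars, SE of the fit) as reported and under each of 13 alternative settings (rows). Both differences that involve the overexpressor stay between -1.37 and -0.85, and mutant minus wild type stays between 0.19 and 0.40.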

How the data were processed

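Root RNA was hybridised to 6 ATH1 arrays, 2 per genotype as the labels give them. Per the submitters' processing notes, the authors made the deposited values with RMA and Affymetrix Expression Console, whose versions the notes do not state; they are intensity on a linear scale. A deposited table held the authors' correlation score for each pair of arrays. Tests used log2 of the deposited intensity with nothing added. Precision is limited by the number of arrays, and detection calls were not used. RMA pulls arrays to one distribution, so differences are relative to the array as a whole.

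Of 22810 probe sets, 64 controls were left out. Gene names are those of the platform annotation, brought up to date with a RefSeq gene table (TAIR10.1): 13513 probe sets had 1 gene, 503 several and 8730 none listed. OCT1 had 1 probe set. For other loci the brightest stood for the locus.

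Differences came from limma 3.58.1, run in R 4.3.3, fitting all 6 arrays together with a mean for each genotype (lmFit, then eBayes), adjusted by the Benjamini-Hochberg method within each of 3 comparisons, two-sided, called at adjusted p under 0.05. Exact permutation of 2 arrays against 2 cannot go below p = 0.333. The fit was tried on simulated data. The profile search was tried on planted near-copies of the OCT1 profile in random noise, an easy case. It does not speak to the stability of the real list.

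OCT1 and the 10 gene lists (224 loci, 30 measured under a name) were chosen with earlier results of these data known. The rule for named genes took OCT1, its measured relatives, the 10 genes most like it and 5 most opposite, called list members, the 3 members of each list (6 for phosphate) with the largest difference between the lines, and 3 measured neighbours per side. No sequence was used here. Alternatives were array centring, the series matrix copy of the values (differences up to 5e-06), the 4 arrays compared alone, a replicate block, no dim probe sets, another variance prior, a pseudocount of 16 and each array left out.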

Additional observations from a re-analysis of the deposited data

Results flagged for a closer look

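Among 43 named genes, 8 were picked out for a difference between the changes of the overexpressor and of the mutant from wild type. In 7 of them the overexpressor arrays and the mutant arrays lay on opposite sides of the wild-type mean. The other, AT3G49960, passed the direct limma test between the lines. Size alone did not pick them: AT1G34510 and AT4G39675 differed more between the lines than OCT1 and were not among the 8. The values given are overexpressor minus mutant on the log2 scale, unless stated otherwise. OCT1, at -1.26, had both overexpressor arrays below and both mutant arrays above the wild-type mean; it was chosen for its low overexpressor arrays, so the difference has no test here. Arrays on opposite sides of the wild-type mean were also seen in JAL22 (-1.05) and AT4G04460 (-0.71), and with the signs turned in AT1G06830 (0.67), AT1G14480 (0.86), AT4G00780 (0.78) and AT4G27280 (1.15). In JAL22 and AT4G00780, however, both mutant arrays lay between the wild-type arrays, with mutant minus wild type at only 0.09 and -0.08. Mutant replicate 2 of AT1G14480 also overlapped wild type. All 6 genes were picked for likeness or opposition to OCT1, and none passed the direct limma test between the lines (adjusted p from 0.202 to 0.294). With the 4 arrays of the lines alone, 58 of 22746 probe sets were called between the lines. JAL22, AT1G06830 and AT4G00780 were among them (limma adjusted p = 0.0268, 0.0463 and 0.0292). OCT1 was chosen for its low value between the same lines, so these p-values are descriptive and lend no support. Leaving out either wild-type array is the same fit for this comparison and adds nothing. AT3G49960, at -1.05, passed the direct limma test over all 6 arrays (adjusted p = 0.042), with both lines below wild type, at -1.31 and -0.26. It too was picked for likeness to OCT1, so that p-value is descriptive as well. Its call was lost with centred arrays (0.0573), without dim probe sets (0.0515), with 16 added (0.104) and without any 1 overexpressor or mutant array. Groups of 2 arrays are too small for a search for outlying arrays.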

How the results depend on the processing

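The replicate numbers were shared across groups, but with 2 numbers they do not show pairing: deviations of same-numbered arrays correlated at 0.0533 between overexpressor and wild type, 0.316 between mutant and wild type and 0.125 between the lines. With a replicate block, 167, 2 and 30 probe sets were called in the overexpressor against wild type, the mutant against wild type and the overexpressor against the mutant, in place of 23, 1 and 3. No OCT1 difference moved, since a block balanced over the groups cannot change a difference of means. With the 4 arrays compared alone there were 0, 0 and 58, and with 16 added to the signal 0, 0 and 0. With a trended, robust prior the first count was 36. With centred arrays the third was 1 (1 higher and 0 lower, against 1 and 2). Leaving out 1 array gave 0 to 3790, 0 to 2743 and 0 to 58; both highest counts against wild type came without wild-type replicate 1. OCT1 moved by more than its replicate SD of 0.0886 when 16 was added (-0.85 against wild type, -1.13 against the mutant), since a pseudocount shrinks a difference. Leaving out 1 array gave -0.99 to -0.94, 0.19 to 0.40 and -1.37 to -1.16 for its 3 differences. Both differences that involve the mutant also moved past that SD when either mutant array was left out. Spearman's rho kept 2 of the 10 most similar genes, and leaving out 1 array 4 to 8. The cause was not tested for the other changes. Of 2340 other values recomputed, 152 moved past their replicate spread or, for counts, by over 1.5 times, and 0 turned a called direction. Some list members were called only without wild-type replicate 1. There the control was replicate 2 alone, the array that stood apart, and calls were many over all probe sets, so those of list members are not read. With the block 7 root hair genes were called in the overexpressor, in place of 3.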
